A study of Felis catus with 25 samples.

Results

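The genes described here are 9 enzymes and stress regulators of amino acid metabolism, PHGDH, SHMT1, SHMT2, MTHFD2, MTHFD1L, GLUL, ASNS, TRIB3 and ATF3. They were chosen by symbol, as the rows of the count tables that carry these names, and all 9 were found among 13949 gene symbols. All 9 also passed the filter on low counts, which left 10699 genes for testing. Their levels were followed over 25 RNA-seq libraries of cat corneal fibroblasts in 5 groups of 5.

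PHGDH starts the synthesis of serine from a glycolytic intermediate. SHMT1 in the cytosol and SHMT2 in mitochondria convert serine to glycine and load the released carbon onto folate, and the mitochondrial enzymes MTHFD2 and MTHFD1L carry that carbon on to formate, which cells use to build purines, thymidylate and methionine. GLUL makes glutamine from glutamate, and ASNS makes asparagine with glutamine as the nitrogen donor. ATF4 is a transcription factor whose translation rises when eIF2alpha is phosphorylated during amino acid shortage, endoplasmic reticulum stress or mitochondrial stress. ASNS, PHGDH, SHMT2, MTHFD2, TRIB3 and ATF3 are commonly listed among its targets. TRIB3 is a pseudokinase that binds the kinase AKT and dampens ATF4 activity, and ATF3 is a stress-induced transcription factor of the same family as ATF4.

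The control group, here FB, held untreated fibroblasts taken at day 0 after a period of quiescence. In the TGFb group, cells had received TGFb1 at 1 ng/ml for 2 days, the growth factor that turns corneal fibroblasts into contractile myofibroblasts. The other 3 groups had the same exposure. TGFb1 was then removed at day 2, a drug was added, and cells were collected at day 5. The Trog group received troglitazone at 7.5 µM, a thiazolidinedione agonist of the nuclear receptor PPARG. The TrogGW group received troglitazone at 7.5 µM together with GW9662 at 10 µM, an antagonist of that receptor. The UK group received UK-5099 at 30 µM, an inhibitor of the mitochondrial pyruvate carrier.

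Day-5 cells without a drug were not analysed here, so the effects of a drug, of removing TGFb1 and of 3 more days in culture cannot be told apart in any comparison of a drug group with TGFb or FB. Comparisons between drug groups share day and TGFb1 history. Replicates are called biological in the labels and independent in the series text, but neither says whether they came from separate cultures or separate cats. The p-values therefore measure only the spread between these libraries, which may be technical. In such bulk RNA, fewer cells that express a gene and less of its RNA per cell cannot be told apart.

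Library totals ran from 14.8 to 25.2 M counts (M stands for 1000000). The smallest was UK replicate 5, which also stood apart, with a correlation of log2 levels over genes of 0.852 to 0.868 with the other UK libraries. In all other pairs within a group it was at least 0.988. The changes of the 9 genes in UK against TGFb are therefore given with and without this library. It is part of the spread estimated in every comparison. Of 14 stromal fibroblast and keratocyte markers, 12 were in the files and had counts in every group. Their summed level was 69171 to 115675 counts per M counts (CPM) over the FB and TGFb libraries and 97535 to 132939 CPM in UK. It was 4508 to 6493 CPM in Trog and 2228 to 4097 CPM in TrogGW. Gene by gene, more of these markers fell than rose in Trog and TrogGW. Of the 11 tested, 1 rose and 6 fell in Trog against TGFb (median log2 change -1.21). In TrogGW against TGFb, 2 rose and 8 fell (median -1.76). Of all tested genes, 29.7% and 31.3% fell in these comparisons. In UK against TGFb, 6 of the 11 rose and 1 fell (median 0.75), where 28% of all genes rose and 22.5% fell. Myofibroblast markers (9 of 10 in the files) summed to 32294 to 37479 CPM in FB, 103743 to 123319 in TGFb, 24385 to 29820 in Trog, 6690 to 16562 in TrogGW and 33869 to 74460 in UK. Corneal endothelial markers (9 of 10 in the files, ZP4 without a count) summed to 964 to 1074 CPM in FB, 1754 to 2029 in TGFb, 428 to 506 in Trog, 315 to 328 in TrogGW and 730 to 1718 in UK. Of the 8 tested, 6 rose in TGFb against FB, and 7 fell in Trog and 7 in TrogGW against TGFb. Vascular endothelial markers (10 of 10 in the files) summed to at most 109 CPM outside UK and to 38.8 to 185 CPM in UK. The part of these shifts in the levels of the 9 genes was not tested. The corneal epithelial keratins KRT3 and KRT12 and the leukocyte marker PTPRC had no count in any group. The summed epithelial markers stayed at or below 10.6 CPM (5 of 10 in the files). Immune markers (11 of 12 in the files) summed to 10.6 to 13.3 CPM in FB, 19.8 to 28.1 in TGFb, 31.8 to 38.9 in Trog, 25.1 to 29.1 in TrogGW and 26.2 to 39.6 in UK. All 4 tested rose in Trog, TrogGW and UK against FB, where 32.4%, 36.2% and 30% of all genes rose. Melanocyte and Schwann cell markers (9 of 10 in the files) summed to 84.3 to 113 CPM over all groups.

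A gene is said below to rise or fall at a Benjamini-Hochberg adjusted p under 0.05 in edgeR's quasi-likelihood test, fitted to all tested genes and all 25 libraries. Changes are log2 fold changes ± SE. In TGFb against FB, 6 of the 9 genes fell and none rose, where 38.2% of all tested genes were called, 18% as higher and 20.2% as lower. The groups did not overlap for 7 of the 9, against 53.2% of all tested genes. Without UK replicate 5, MTHFD1L became the seventh member to fall, where 66% of all genes were called. In Trog against TGFb all 9 were called, 5 higher and 4 lower, where 62.6% of all genes were called (32.9% higher, 29.7% lower). The same split of 5 higher and 4 lower was found in TrogGW against TGFb, with 69.4% of all genes called (38.1% higher, 31.3% lower). In UK against TGFb, 3 rose and 6 fell, with 50.5% of all genes called (28% higher, 22.5% lower). The groups did not overlap for 9, 9 and 8 members in these 3 comparisons, against 70.8%, 76.1% and 34.7% of all tested genes. The counts of members were the same without UK replicate 5, where 81%, 85.9% and 70.9% of all genes were called. With all libraries, the median change of the 9 genes in UK against TGFb was -1.73 and that of all genes 0.09. In Trog and TrogGW against TGFb the medians of the 9 genes were 0.35 and 0.64, and those of all genes 0.04 and 0.09. These 3 comparisons share the TGFb libraries. The plot of changes by gene shows that PHGDH, SHMT2, MTHFD1L and ASNS fell under every drug regimen, and that SHMT1, GLUL and TRIB3 rose under every regimen. For TRIB3 the UK and TGFb libraries overlapped, and the rise in UK went from 0.87 to 0.39 without UK replicate 5. It was not called in a fit of these 2 groups alone (edgeR adjusted p = 0.102). MTHFD2 and ATF3 rose in Trog and TrogGW and fell in UK. Scaling by library totals alone kept these directions but moved several sizes. In Trog it gave -0.48 for PHGDH, -0.42 for SHMT2, -0.51 for MTHFD1L, -0.48 for ASNS and 1.03 for MTHFD2. In TrogGW it gave -0.17 for PHGDH, -1.21 for SHMT2, -0.61 for MTHFD1L, -0.66 for ASNS and 1.49 for MTHFD2. In TGFb against FB it gave -1.06 for PHGDH, -1.08 for SHMT2 and -0.75 for ASNS.

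**Figure D1:**
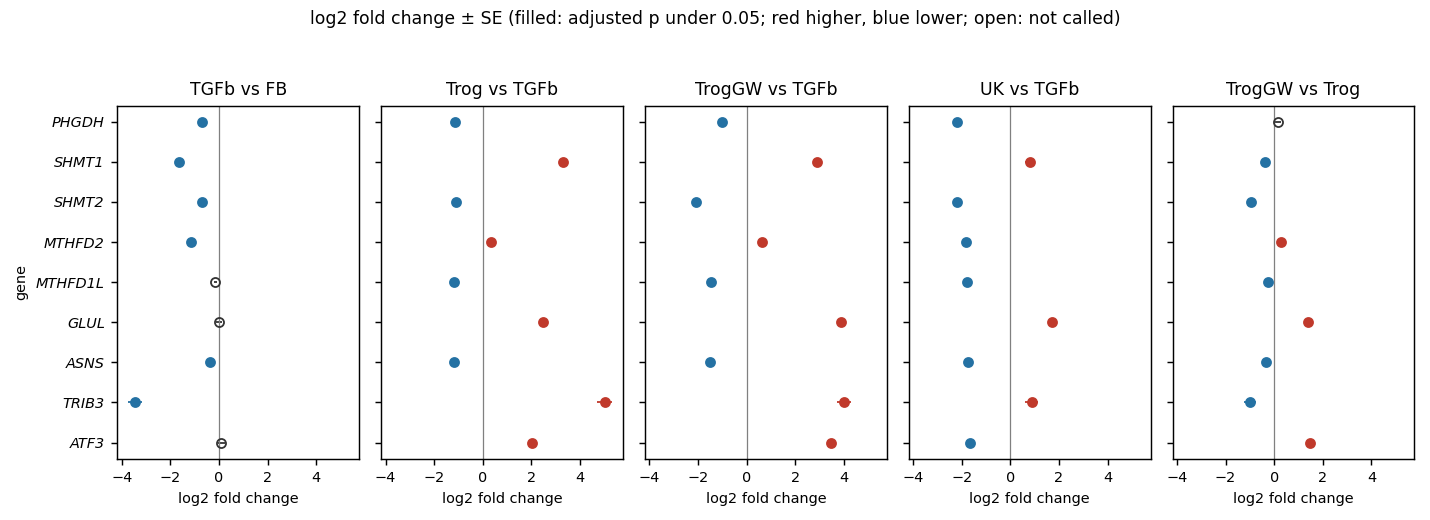
Changes of the 9 genes (rows) as log2 fold change ± SE (horizontal axis) in 5 comparisons (panels), with filled points for adjusted p under 0.05, red for higher and blue for lower. SHMT1 and SHMT2 point in opposite directions in each of the 3 comparisons of a drug group with TGFb. The open points for GLUL and ATF3 in TGFb against FB change sign when libraries are scaled by their totals alone.

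PHGDH, the enzyme that commits glucose carbon to serine, was highest in untreated fibroblasts and lowest with UK-5099. Its level was 235, 214, 239, 210 and 227 CPM in FB replicates 1 to 5. In TGFb it was 129, 137, 135, 169 and 128 CPM, so every TGFb library lay below every FB library. The change was -0.69 ± 0.147 (edgeR adjusted p = 0.00057). In Trog the 5 values were 59.1, 68.5, 64.1, 56.0 and 64.4 CPM, and in TrogGW 56.0, 68.0, 76.9, 70.5 and 73.0 CPM. These 2 groups overlapped and differed by 0.14 ± 0.146 (TrogGW over Trog, edgeR adjusted p = 0.473). Both lay below TGFb, by -1.16 ± 0.148 in Trog (edgeR adjusted p = 3.1e-07) and -1.02 ± 0.148 in TrogGW (1.61e-06). With libraries scaled by their totals alone, the TrogGW change shrank to -0.17 (edgeR adjusted p = 0.239). UK libraries read 30.9, 29.8, 23.9, 20.9 and 47.2 CPM, with the last value from the library that stood apart. PHGDH fell there against TGFb (-2.20 ± 0.154, edgeR adjusted p = 3.17e-11), also without UK replicate 5 (-2.41, 1.14e-18).

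The other enzymes of serine synthesis, PSAT1 and PSPH, were read beside PHGDH. PSAT1, the transaminase of the second step, averaged 1261 ± 20.1 CPM (SD, n = 5) in FB, 845 ± 45.9 in TGFb, 423 ± 14.4 in Trog, 320 ± 19.2 in TrogGW and 337 ± 153 in UK. PSPH, the phosphatase that releases serine, averaged 141 ± 2.91, 77.6 ± 4.04, 32.3 ± 2.04, 30.1 ± 1.62 and 30.2 ± 16.6 CPM in the same order. PSAT1 and PSPH fell in TGFb against FB (-0.58 and -0.86, edgeR adjusted p = 0.00785 and 0.000846). They fell again in each drug group against TGFb, with log2 changes in Trog, TrogGW and UK of -0.999, -1.40 and -1.33 for PSAT1 and -1.27, -1.37 and -1.37 for PSPH. UK changes were -1.64 and -1.76 without UK replicate 5. All 3 enzymes of the pathway thus fell at each of these 4 comparisons. Of the 6 tested genes of serine synthesis and glycine cleavage, 3 fell and none rose in TGFb against FB, and 5 fell in Trog, 4 in TrogGW and 3 in UK against TGFb. Over all tested genes, 20.2% fell in TGFb against FB, and 29.7%, 31.3% and 22.5% in Trog, TrogGW and UK against TGFb. In UK, 2 of the 6 rose, where 28% of all genes rose. With library totals alone, 3 of the 6 fell and 1 rose in Trog, 2 fell and 1 rose in TrogGW, and 3 fell and 3 rose in UK. Without UK replicate 5 all 6 fell in Trog, where 81% of all genes were called, and the counts in TGFb, TrogGW and UK were unchanged.

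SHMT1 and SHMT2 catalyse the same reaction in different compartments and moved apart. SHMT2 read 903, 883, 898, 849 and 863 CPM in FB and 523, 523, 553, 565 and 524 CPM in TGFb. In Trog it was 238, 270.2, 248, 244 and 250.04 CPM, and in TrogGW 142, 133, 119, 120.3 and 129 CPM. UK libraries held 111, 130, 99.5, 86.3 and 164 CPM. FB, TGFb, Trog and TrogGW formed 4 steps without overlap, while UK overlapped TrogGW. The step from FB to TGFb was -0.71 ± 0.112 (edgeR adjusted p = 1.69e-05), and that from TGFb to Trog -1.10 ± 0.113 (8.89e-09). TrogGW lay below Trog by a further -0.96 ± 0.113 (edgeR adjusted p = 2.41e-07). UK and TrogGW differed by -0.12 ± 0.112 (edgeR adjusted p = 0.34), and without UK replicate 5 UK was lower by -0.26 (0.00224). Library totals alone gave -0.76 for this SHMT2 difference (edgeR adjusted p = 2.02e-07). Against TGFb, the UK change was -2.19 ± 0.116 (edgeR adjusted p = 2.6e-13), or -2.33 without that library (6.97e-21).

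SHMT1 was a low gene, with 10 to 31 reads in a TGFb library and 276 to 352 in a Trog library. It read 3.58, 4.43, 4.02, 4.27 and 3.74 CPM in FB and 1.33, 1.16, 1.75, 1.64 and 0.622 CPM in TGFb. In Trog it was 11.9, 13.5, 12.6, 11.3 and 14.97 CPM, and in TrogGW 9.35, 8.81, 9.93, 11.9 and 9.14 CPM. UK libraries read 2.41, 2.60, 2.01, 2.17 and 2.10 CPM, between TGFb and FB with no overlap with either. SHMT1 fell in TGFb against FB (-1.62 ± 0.173, edgeR adjusted p = 5.36e-08). It rose in each drug group against TGFb, 9.86-fold in Trog (3.30 ± 0.169, edgeR adjusted p = 4.13e-14), 7.53-fold in TrogGW (2.42e-13) and 1.74-fold in UK (0.000724). Leaving out UK replicate 5 gave 0.82 for the UK change (edgeR adjusted p = 0.000572). Trog and TrogGW also stood above FB, by 1.68 ± 0.148 and 1.29 ± 0.147 (edgeR adjusted p = 7.69e-10 and 4.58e-08), and UK stood below FB (-0.83 ± 0.16, 0.000113, or -0.81 without UK replicate 5).

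SHMT1 was somewhat lower in TrogGW than in Trog, by -0.39 ± 0.139 (edgeR adjusted p = 0.0272), with overlapping groups. That call ended when TrogGW replicate 1, 2 or 5 was left out (edgeR adjusted p = 0.0527, 0.0703 and 0.0623), or Trog replicate 2 or 5 (0.055 and 0.0785). It also ended with upper-quartile scaling (edgeR adjusted p = 0.0757) and with library totals alone (0.235). In the RefSeq cat annotation the SHMT1 gene overlaps SMCR8, a gene of an autophagy complex, and whether the authors counted reads by strand is not given in the sources used here. SMCR8 averaged 9.18 CPM in FB, 10.5 in TGFb, 40.8 in Trog, 50.4 in TrogGW and 16.4 in UK. It rose in Trog (1.96 ± 0.427, edgeR adjusted p = 0.000333) and in TrogGW (2.27 ± 0.43, 6.05e-05) against TGFb. How far reads of SMCR8 enter the SHMT1 count was not tested. In TGFb against FB SHMT1 fell, while the SMCR8 value was 0.19 ± 0.425 (edgeR adjusted p = 0.77).

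MTHFD2 and MTHFD1L, which act in sequence behind SHMT2, moved apart in Trog and TrogGW against TGFb, while both fell in UK. MTHFD2, the mitochondrial dehydrogenase and cyclohydrolase, read 371, 363, 360, 362 and 343 CPM in FB and 144, 160, 169, 177 and 159 CPM in TGFb. In Trog it was 204, 222, 207, 187 and 213 CPM, and in TrogGW 262, 247, 240, 238 and 271 CPM. In UK it was 46.6, 52.0, 40.8, 36.4 and 50.9 CPM. No pair of groups overlapped, and the order from high to low was FB, TrogGW, Trog, TGFb, UK. MTHFD2 fell in TGFb against FB (-1.15 ± 0.0856, edgeR adjusted p = 1.38e-10). Against TGFb it rose in Trog (0.35 ± 0.0846, edgeR adjusted p = 0.000902) and TrogGW (0.64 ± 0.0849, 4.64e-07), and fell in UK (-1.83 ± 0.0876, 3.79e-14, or -1.88 without UK replicate 5, 6.1e-19). TrogGW exceeded Trog by 0.29 ± 0.0845 (edgeR adjusted p = 0.00821). It stayed below FB by -0.52 ± 0.0846 (9.69e-06), a difference that was -0.04 with library totals alone (0.694).

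MTHFD1L, the synthetase that releases formate in mitochondria, read 133, 144, 131, 128 and 134 CPM in FB and 121, 116, 126, 120 and 124 CPM in TGFb. It was 55.5, 49.0, 51.9, 56.3 and 52.9 CPM in Trog, and 50.6, 42.6, 40.3, 41.9 and 44.2 CPM in TrogGW. UK libraries read 35.6, 37.6, 36.0, 35.7 and 32.7 CPM, the lowest of all. FB and TGFb did not overlap, yet their difference of -0.15 ± 0.0663 missed the threshold (edgeR adjusted p = 0.0831). It passed without UK replicate 5 (-0.15, edgeR adjusted p = 0.0124), with upper-quartile scaling (-0.21, 0.0186), with library totals alone (-0.52, 8.39e-06) and in a fit of FB and TGFb alone (-0.15, 0.00508). Against TGFb MTHFD1L fell in Trog (-1.19 ± 0.0673, edgeR adjusted p = 2.51e-13), TrogGW (-1.46 ± 0.0677, 4.29e-15) and UK (-1.77 ± 0.0686, 9.91e-16). The UK change was -1.74 without UK replicate 5 (edgeR adjusted p = 4.77e-21). TrogGW was lower than Trog by -0.27 ± 0.0666 (edgeR adjusted p = 0.0017), with overlap through TrogGW replicate 1. With library totals alone this was -0.11 (edgeR adjusted p = 0.294). The highest and lowest group means differed 3.78-fold, the narrowest range of the 9 genes.

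**Figure D2:**
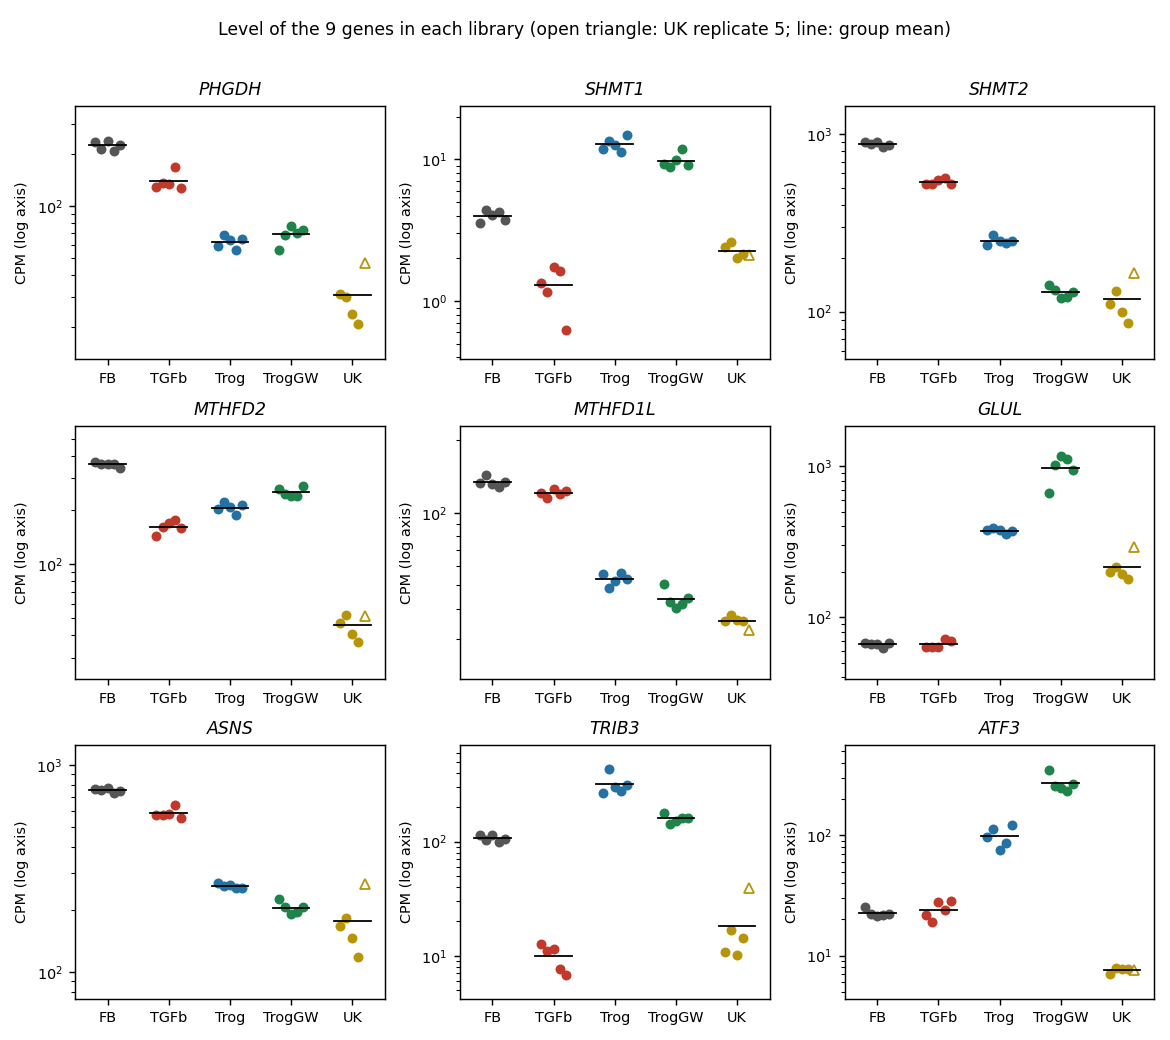
Level of each gene in CPM (vertical log axis) in every library, by group, with lines for the group means and an open triangle for UK replicate 5. PHGDH, SHMT2, MTHFD1L and ASNS step down from FB to the drug groups, SHMT1 and TRIB3 are lowest in TGFb and highest in Trog, and ATF3 in UK lies between 7.004 and 7.89 CPM.

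Ratios of 2 genes' counts within a library do not depend on how libraries are scaled, and they are given as descriptions. The SHMT1 to SHMT2 ratio had medians of 0.00448 in FB, 0.00255 in TGFb, 0.0501 in Trog, 0.0709 in TrogGW and 0.0201 in UK. Every library of the 3 drug groups (at least 0.0128) exceeded every FB and TGFb library (at most 0.00504). The MTHFD2 to SHMT2 ratio had medians of 0.410 in FB, 0.305 in TGFb, 0.834 in Trog, 1.98 in TrogGW and 0.410 in UK. TrogGW libraries (1.85 to 2.10) and Trog libraries (0.766 to 0.855) lay apart from each other and above all others. MTHFD2 relative to MTHFD1L had medians of 2.74, 1.35, 3.99, 5.80 and 1.31 in the same order of groups. In UK and TGFb the MTHFD2 to MTHFD1L ratios overlapped, at 1.02 to 1.56 and 1.19 to 1.47. As the ratios rest on reads per gene with no correction for gene length, only their differences between groups can be read.

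**Figure D3:**
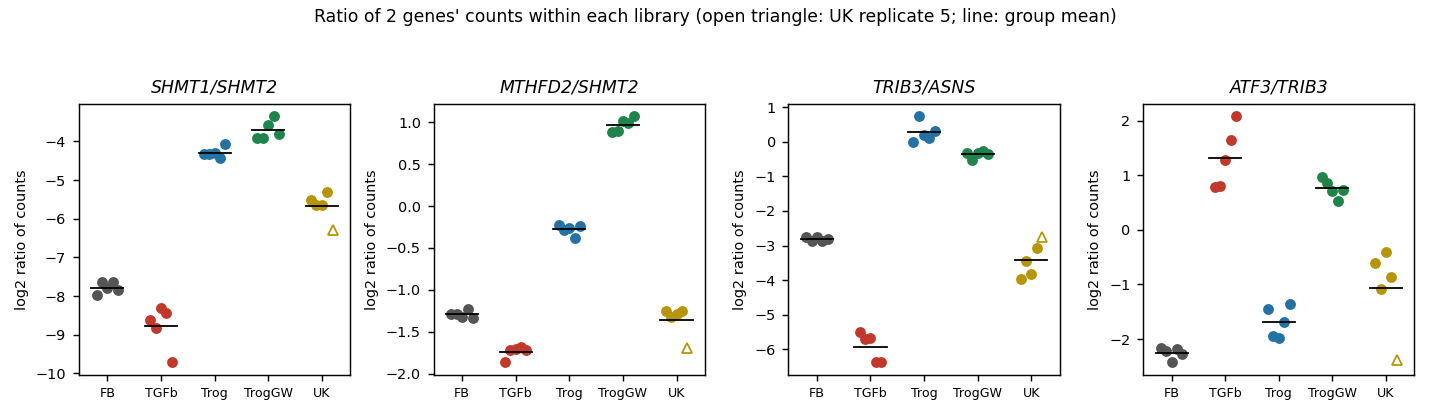
Ratio of 2 genes' counts within each library on a log2 scale (vertical axis), by group, with lines for group means and an open triangle for UK replicate 5. SHMT1/SHMT2 lies higher in the 3 drug groups than in FB and TGFb, MTHFD2/SHMT2 is highest in TrogGW, TRIB3/ASNS is lowest in TGFb, and ATF3/TRIB3 is higher in TGFb and TrogGW than in FB and Trog.

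GLUL and ASNS handle the amide nitrogen of glutamine from opposite sides and moved in opposite directions under each drug regimen. GLUL read 67.8, 66.3, 66.9, 62.5 and 67.4 CPM in FB and 63.4, 63.7, 63.5, 71.6 and 70.0 CPM in TGFb. These 2 groups overlapped and differed by 0.01 ± 0.123 (edgeR adjusted p = 0.981), a value that turned to -0.37 with library totals alone (0.0113) and to -0.05 with upper-quartile scaling (0.767). In Trog GLUL was 376, 389, 376, 353 and 370 CPM. In TrogGW it was 663, 1022, 1159, 1108 and 938 CPM, so replicate 1 was low within its group but still above every Trog library. UK libraries read 198, 214, 193, 180 and 291 CPM. Against TGFb, GLUL rose 5.61-fold in Trog (2.49 ± 0.129, edgeR adjusted p = 5.56e-14), 14.7-fold in TrogGW (3.88 ± 0.137, 3.87e-17) and 3.24-fold in UK (1.70 ± 0.126, 8.76e-11). The rise in UK was 1.57 without UK replicate 5 (edgeR adjusted p = 6.36e-15). TrogGW exceeded Trog by 1.39 ± 0.124 (edgeR adjusted p = 3.23e-09), and UK lay below Trog by -0.79 ± 0.123 (6.94e-06), or -0.92 without UK replicate 5. GLUL was the only member above FB in all 3 drug groups, with changes of 2.49, 3.88 and 1.70.

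ASNS read 769, 759, 778, 728 and 750 CPM in FB and 572, 573, 577, 640 and 555 CPM in TGFb. In Trog it was 270, 259, 262, 256 and 254 CPM, in TrogGW 224, 207, 191, 195 and 205 CPM, and in UK 166, 182, 145, 119 and 265 CPM. FB, TGFb, Trog and TrogGW descended without overlap, and UK replicate 5 reached into the Trog range. ASNS fell in TGFb against FB (-0.38 ± 0.128, edgeR adjusted p = 0.0235), a call that ended without TGFb replicate 5 (-0.36, 0.0507). It fell against TGFb in Trog (-1.17 ± 0.13, edgeR adjusted p = 3.76e-08), TrogGW (-1.51 ± 0.131, 3.91e-10) and UK (-1.73 ± 0.132, 1.41e-10). The fall in UK was -1.93 without UK replicate 5 (edgeR adjusted p = 6.52e-19). The smaller difference of TrogGW from Trog was -0.35 ± 0.129 (edgeR adjusted p = 0.0321). This call ended when TrogGW replicate 2, 3, 4 or 5 or Trog replicate 1 was left out (edgeR adjusted p = 0.0503, 0.0693, 0.0645, 0.0519 and 0.0567). It also ended with upper-quartile scaling (0.0711), library totals alone (0.18) or a minimum count of 50 (0.0532). The median GLUL to ASNS ratio of counts was 0.0874 in FB and 0.111 in TGFb, and 1.43 in Trog, 4.95 in TrogGW and 1.19 in UK.

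TRIB3 had the largest change with troglitazone of the 9 genes. It read 115, 103, 114, 98.8 and 106 CPM in FB and 12.6, 10.96, 11.3, 7.69 and 6.72 CPM in TGFb. In Trog it was 268, 434, 299, 277 and 313 CPM, and in TrogGW 179, 143, 152, 162 and 161 CPM. UK libraries read 10.7, 16.8, 10.2, 14.2 and 39.4 CPM, overlapping TGFb, with the highest value in replicate 5. TRIB3 fell 10.9-fold in TGFb against FB (-3.44 ± 0.283, edgeR adjusted p = 8.22e-10). Against TGFb it rose 32.2-fold in Trog (5.01 ± 0.303, edgeR adjusted p = 8.43e-13) and 16.1-fold in TrogGW (4.01 ± 0.29, 1.53e-11). TrogGW was lower than Trog by -0.998 ± 0.255 (edgeR adjusted p = 0.00265). It lay above FB in every library, by 0.57 ± 0.254, which missed the threshold (edgeR adjusted p = 0.0503). That last difference passed when TGFb replicate 5, Trog replicate 2, UK replicate 1, UK replicate 3 or UK replicate 5 was left out (edgeR adjusted p = 0.0494, 0.0488, 0.0408, 0.038 and 5.38e-05). It also passed with upper-quartile scaling (0.64, edgeR adjusted p = 0.0249), library totals alone (1.04, 0.000218), a minimum count of 50 (0.60, 0.0416) and a fit of the 2 groups alone (0.57, 2.64e-07), and with limma voom (0.57, adjusted p = 0.0169). The UK rise over TGFb was 0.87 ± 0.267 (edgeR adjusted p = 0.00899). Leaving out UK replicate 5 gave 0.39 (edgeR adjusted p = 0.04), and in a fit of UK and TGFb alone it was 0.89 and not called (0.102).

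ATF3 separated the drugs most widely, with a ratio of 35.7 between its highest and lowest group means. It read 25.6, 22.2, 21.2, 21.8 and 22.0 CPM in FB and 21.6, 19.1, 27.6, 23.96 and 28.5 CPM in TGFb. These groups overlapped and differed by 0.10 ± 0.129 (edgeR adjusted p = 0.593), which turned to -0.27 with library totals alone (0.0852). Trog libraries read 97.7, 113, 75.6, 86.1 and 121 CPM, TrogGW libraries 350, 259, 247, 235 and 266 CPM, and UK libraries 7.004, 7.89, 7.71, 7.81 and 7.59 CPM. The 3 drug groups overlapped neither each other nor FB and TGFb. ATF3 rose 4.09-fold in Trog (2.03 ± 0.132, edgeR adjusted p = 3.15e-12) and 11.2-fold in TrogGW (3.49 ± 0.14, 3.14e-16) against TGFb, and fell 3.17-fold in UK (-1.67 ± 0.135, 4.05e-10). For ATF3 the UK change without UK replicate 5 was -1.66 (edgeR adjusted p = 5.61e-11). TrogGW exceeded Trog by 1.46 ± 0.129 (edgeR adjusted p = 2.79e-09), the opposite direction to TRIB3. The ATF3 to TRIB3 ratio of counts accordingly had medians of 0.215 in FB, 2.44 in TGFb, 0.311 in Trog, 1.65 in TrogGW and 0.551 in UK. TRIB3 relative to ASNS had medians of 0.142, 0.0191, 1.14, 0.793 and 0.0921 in the same order.

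Adding GW9662 to troglitazone was the comparison that shares day, TGFb1 history and the troglitazone dose. MTHFD2, GLUL and ATF3 rose and SHMT1, SHMT2, MTHFD1L, ASNS and TRIB3 fell in TrogGW against Trog, 8 called genes where 43.2% of all genes were called (22.8% higher, 20.4% lower). The split was the same without UK replicate 5, with 71.6% of all genes called. The groups did not overlap for 6 of the 9, against 54.2% of all genes. With library totals alone, 5 of the 9 were called, and SHMT1, MTHFD1L and ASNS were the 3 lost. That scaling moved the median of all genes by 0.168 and the share of higher genes among all calls from 52.8% to 69.9%. The UK group was lower than Trog for all 9 genes, with 61.1% of all genes called, 32.9% as higher and 28.2% as lower. That count was 9 as well without UK replicate 5 (75.1% of all genes called), and the groups did not overlap for 8 of the 9, against 44% of all genes. It was lower than TrogGW for 7 of 9, where 68% of all genes were called, 32.9% as higher and 35.1% as lower, and did not overlap with it for 7, against 51.7% of all genes. Without UK replicate 5 all 9 were lower than in TrogGW, beside 81.5% of all genes called. The widest gaps between UK and TrogGW were in ATF3 (-5.16 ± 0.152, edgeR adjusted p = 3.71e-18) and TRIB3 (-3.14 ± 0.277, 6.84e-10). They were -5.15 and -3.61 without UK replicate 5. The MTHFD1L difference between these groups, -0.31 ± 0.0669 (edgeR adjusted p = 0.000308), was -0.27 and called without UK replicate 5 (9.14e-05), and -0.27 and not called in a fit of the 2 groups alone (0.0624). ASNS differed between them by -0.22 and was not called, but was with upper-quartile scaling (-0.30, edgeR adjusted p = 0.0319), library totals alone (-0.87, 1.43e-07) and without UK replicate 5 (-0.41, 1.67e-05).

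Against the untreated cells, 4 of the 9 genes were higher in Trog (SHMT1, GLUL, TRIB3 and ATF3) and 5 were lower, with 63.9% of all genes called (32.4% higher, 31.5% lower). In TrogGW 3 rose and 5 fell, with 69.7% of all genes called (36.2% higher, 33.6% lower), and TRIB3 became the fourth to rise without UK replicate 5, where 85.8% were called. In UK GLUL rose and the other 8 fell, with 56.4% of all genes called (30% higher, 26.5% lower). The Trog and UK counts against FB were the same without UK replicate 5, where 81.4% and 77.8% of all genes were called. For every member no library of Trog, TrogGW or UK overlapped FB, which held for 71.5%, 75.7% and 37.8% of all tested genes. MTHFD2 in UK was 7.94-fold lower than in FB (-2.99 ± 0.0913, edgeR adjusted p = 1.87e-17), and SHMT2 7.45-fold lower (-2.90 ± 0.12, 1.34e-15). These were -3.03 and -3.04 without UK replicate 5. PHGDH was 7.40-fold lower there (-2.89 ± 0.157, edgeR adjusted p = 1.91e-13), or -3.10 without that library.

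Other genes of these pathways were counted in lists, each of which includes the members that belong to it. Over all tested genes, 18% rose and 20.2% fell in TGFb against FB. Against TGFb, 32.9% rose and 29.7% fell in Trog, 38.1% and 31.3% in TrogGW, and 28% and 22.5% in UK. Without UK replicate 5, 66%, 81%, 85.9% and 70.9% of all genes were called, in the same order of comparisons. A list count near these shares is not particular to that list. Scaling by library totals alone moved the median of all genes up by 0.684, 0.851 and 0.231 in Trog, TrogGW and UK against TGFb and by -0.375 in TGFb against FB. Under that scaling, higher genes made up 83.2%, 84.9% and 74.2% of all calls in Trog, TrogGW and UK against TGFb. In TGFb against FB they made up 13.9%.

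Of 6 tested cytosolic folate enzymes, SHMT1 among them, all 6 fell in TGFb against FB. Of these 6, 4 rose and 1 fell in Trog, 5 rose and 1 fell in TrogGW, and 4 rose and 1 fell in UK, each against TGFb. Under library totals alone, 5, 6 and 4 rose and none fell. Omitting UK replicate 5 changed these counts in Trog only, where 5 then rose. MTHFD1, the cytosolic enzyme that joins formate to folate, averaged 140 ± 1.87 CPM in FB, 72.0 ± 4.28 in TGFb, 135 ± 2.39 in Trog, 92.6 ± 3.27 in TrogGW and 63.7 ± 2.48 in UK. MTHFD1 rose in Trog (0.91 ± 0.0546, edgeR adjusted p = 7.55e-13) and TrogGW (0.36 ± 0.0543, 2.56e-06) against TGFb. It fell slightly in UK (-0.18 ± 0.0544, edgeR adjusted p = 0.00927), which library totals alone turned to 0.05 (0.532). TYMS, which makes thymidylate for DNA synthesis, fell in TGFb (-1.89 ± 0.253, edgeR adjusted p = 1.84e-06) and rose in UK (2.06 ± 0.255, 3.7e-07). The UK rise of TYMS was 1.52 without UK replicate 5.

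Of 8 tested mitochondrial folate genes, which include SHMT2, MTHFD2 and MTHFD1L, 4 fell in TGFb against FB and none rose, while 7 fell with library totals alone and 6 fell and 1 rose without UK replicate 5. Against TGFb, 4 rose and 2 fell in Trog, 4 rose and 3 fell in TrogGW, and 1 rose and 4 fell in UK. The 3 pairs of counts were 6 and 2, 6 and 2, and 3 and 4 with library totals alone, and 5 and 2, 4 and 4, and 2 and 4 without UK replicate 5. MTHFD2L, the paralog of MTHFD2, had group means below 1 CPM. MTHFD2L fell in TGFb (-1.50 ± 0.335, edgeR adjusted p = 0.000888) and rose in Trog (1.70 ± 0.32, 6.63e-05) and TrogGW (2.28 ± 0.301, 3.98e-07). MTHFD2 had the same directions in these comparisons. In UK against TGFb, where MTHFD2 fell, MTHFD2L was not called with all libraries. ALDH1L2, which oxidises formyl-folate in mitochondria, averaged 318 ± 18.5, 421 ± 20.1, 482 ± 27.3, 347 ± 20.1 and 162 ± 67.2 CPM in FB, TGFb, Trog, TrogGW and UK. ALDH1L2 fell in UK against TGFb (-1.37 ± 0.229, edgeR adjusted p = 2.46e-05), also without UK replicate 5 (-1.13). In Trog and TrogGW against TGFb ALDH1L2 was not called (0.20 and -0.28, edgeR adjusted p = 0.463 and 0.276). It was called in both without UK replicate 5 (edgeR adjusted p = 0.00147 and 1.81e-05), while library totals alone gave 0.88 in Trog (0.00308) and turned the TrogGW value to 0.57 (0.0392). SLC25A32, the mitochondrial folate carrier, rose in Trog (0.56 ± 0.165, edgeR adjusted p = 0.00512) and TrogGW (1.21 ± 0.164, 6.19e-07).

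Purine synthesis uses the folate carbon that these enzymes supply. Of its 11 tested genes, 2 fell in TGFb against FB, or 8 both with library totals alone and without UK replicate 5. Against TGFb, 3 rose and 3 fell in Trog, 2 rose and 4 fell in TrogGW, and 1 rose and 2 fell in UK. The direction again depended on the scaling, since 7 rose and none fell in Trog, 7 rose and 1 fell in TrogGW, and 4 rose and 2 fell in UK with library totals alone. Without UK replicate 5 the counts were 3 and 7, 4 and 6, and 3 and 3. PPAT, which catalyses the committed step of the pathway, fell in UK (-1.67 ± 0.189, edgeR adjusted p = 9.47e-08), also without UK replicate 5 (-1.46). PPAT also fell in Trog (-0.50 ± 0.182, edgeR adjusted p = 0.0202), where library totals alone gave 0.18.

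**Figure D4:**
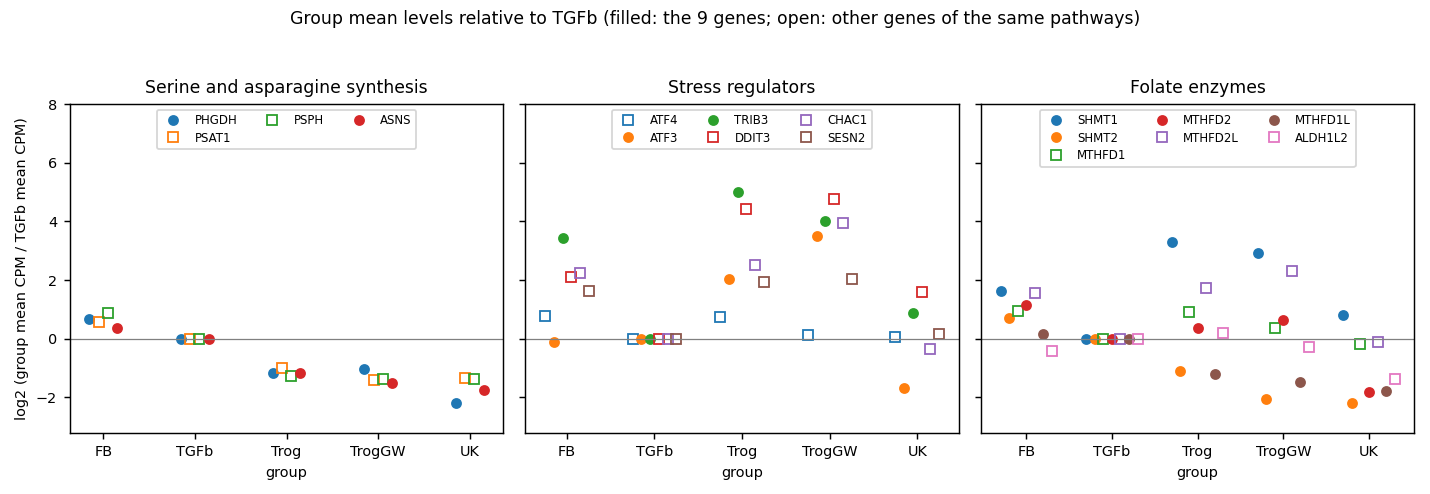
Group mean level relative to the TGFb mean (vertical axis, log2 ratio of mean CPM) for members (filled circles) and other genes of their pathways (open squares), by group, in 3 panels. The 4 genes of serine and asparagine synthesis lie below TGFb in every drug group, while TRIB3, DDIT3, CHAC1 and SESN2 lie above it in Trog and TrogGW. The small ATF3 difference between FB and TGFb and the ALDH1L2 difference between TrogGW and TGFb reverse with library totals alone, as does that of MTHFD1 between UK and TGFb.

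Genes listed as ATF4 targets moved in both directions, as did all tested genes. Of 28 listed, 24 were among the counted genes and 22 were tested. Of the 22, 4 rose and 11 fell in TGFb against FB, where 18% of all genes rose and 20.2% fell. Against TGFb, 11 rose and 8 fell in Trog (32.9% and 29.7% of all genes). In TrogGW 9 rose and 10 fell (38.1% and 31.3% of all genes). In UK 4 rose and 15 fell, where 28% of all genes rose and 22.5% fell. Their median change in UK was -1.27, that of all genes 0.09. Scaled by library totals alone, 14 rose and 7 fell in Trog, 12 rose and 8 fell in TrogGW, and 5 rose and 15 fell in UK. Without UK replicate 5, 14 rose and 8 fell in Trog, 9 rose and 11 fell in TrogGW, and 4 rose and 16 fell in UK. The 22 include 6 of the 9 members. Among those that rose in Trog and TrogGW were DDIT3, a proapoptotic transcription factor, CHAC1, which degrades glutathione, SESN2, an inhibitor of mTORC1, and SLC3A2, the heavy chain of amino acid exchangers. Among those that fell in all 3 drug groups were PSAT1, the proline synthesis enzymes PYCR1 and ALDH18A1, and the secreted or surface proteins STC2 and VLDLR. The PYCR1 change in Trog, -0.64 ± 0.183 (edgeR adjusted p = 0.00423), was 0.05 with library totals alone (0.839).

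DDIT3 averaged 34.3 ± 4.88 CPM in FB, 7.91 ± 2.40 in TGFb, 170 ± 52.3 in Trog, 213 ± 12.1 in TrogGW and 23.8 ± 22.2 in UK. DDIT3 thus had its lowest mean in TGFb, as did TRIB3. It fell in TGFb (-2.11 ± 0.367, edgeR adjusted p = 5.72e-05) and rose in Trog (4.42 ± 0.398, 1.07e-09), TrogGW (4.75 ± 0.404, 2.83e-10) and UK (1.56 ± 0.365, 0.000983). The UK rise of DDIT3 was 0.80 without UK replicate 5. CHAC1 rose by 2.51 ± 0.27 in Trog and 3.93 ± 0.285 in TrogGW (edgeR adjusted p = 1.98e-08 and 1.6e-11), and TrogGW exceeded Trog by 1.41 ± 0.255 (7.54e-05). SESN2 rose by 1.94 ± 0.167 and 2.03 ± 0.167 in these groups (edgeR adjusted p = 4.54e-10 and 1.52e-10). In UK against TGFb, CHAC1 and SESN2 were not called (-0.38 and 0.18, edgeR adjusted p = 0.249 and 0.388), though SESN2 was with library totals alone (0.39, 0.0219). SLC3A2 averaged 39.3 ± 4.64 CPM in TGFb, 529 ± 24.5 in Trog, 671 ± 90.3 in TrogGW and 81.5 ± 38.9 in UK. SLC3A2 rose by 3.75, 4.09 and 1.05 (edgeR adjusted p = 1.74e-13, 3.03e-14 and 6.4e-05), the last by 0.73 without UK replicate 5.

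ATF4 itself averaged 941 ± 44.7 CPM in FB, 547 ± 29.4 in TGFb, 919 ± 80.6 in Trog, 594 ± 81.8 in TrogGW and 566 ± 408 in UK. ATF4 mRNA fell in TGFb (-0.78 ± 0.247, edgeR adjusted p = 0.0142) and rose in Trog (0.75 ± 0.247, 0.0111). It was not called in TrogGW (0.12 ± 0.245, edgeR adjusted p = 0.679) or in UK (0.05 ± 0.246, 0.884) against TGFb. ATF4 also rose in TrogGW with library totals alone (0.97, edgeR adjusted p = 0.000197). When UK replicate 5 was left out, ATF4 fell in UK (-0.51, edgeR adjusted p = 5.81e-06). ATF4 protein and eIF2alpha phosphorylation are not measured by these libraries. Of 12 tested genes around eIF2alpha, 2 rose and 4 fell in TGFb, 7 rose and 2 fell in Trog, 6 rose and 1 fell in TrogGW, and 5 rose and 2 fell in UK. Library totals alone gave 0 and 8, 8 and 0, 11 and 1, and 6 and 0. Omission of UK replicate 5 gave 4 and 6, 7 and 3, 8 and 3, and 6 and 4. PPP1R15B, a subunit of the phosphatase that reverses eIF2alpha phosphorylation, rose in Trog (1.67 ± 0.162, edgeR adjusted p = 3.85e-09) and TrogGW (1.16 ± 0.16, 8.2e-07) and fell in UK (-0.58 ± 0.159, 0.00398). DELE1, which relays mitochondrial stress to an eIF2alpha kinase, fell in all 3 (-0.76, -1.10 and -0.41, edgeR adjusted p = 3.56e-10, 3.88e-13 and 1.26e-05). The falls of DELE1 in Trog and UK (-0.08 and -0.17, edgeR adjusted p = 0.377 and 0.065) and of PPP1R15B in UK (-0.32, 0.138) were not called with library totals alone.

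Aminoacyl-tRNA synthetases are often listed with ATF4, and their direction under troglitazone depended on the scaling. Of 11 tested, 5 fell in TGFb against FB and none rose, while all 11 fell with library totals alone and 8 without UK replicate 5. Against TGFb 3 rose and 2 fell in Trog, 8 fell in TrogGW and 10 fell in UK, with none rising in TrogGW or UK. By library totals alone, 10 rose in Trog, 8 rose and 2 fell in TrogGW, and 10 fell in UK. Without UK replicate 5, 3 rose and 3 fell in Trog, 9 fell in TrogGW and all 11 fell in UK. Their median change in UK was -1.04 and that of all genes 0.09. WARS1, the tryptophanyl-tRNA synthetase, averaged 1588 ± 136 CPM in TGFb and 201 ± 19.8 in UK (-2.98 ± 0.0955, edgeR adjusted p = 6.37e-17).

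Of 11 amino acid transporters, 5 rose and 2 fell in Trog, 5 rose and 3 fell in TrogGW, and 3 rose and 6 fell in UK. Scaled by library totals alone, 7 rose and none fell in Trog and in TrogGW, and 3 rose and 5 fell in UK. The counts without UK replicate 5 were 6 and 4, 5 and 5, and 3 and 7. SLC7A5, a leucine carrier that pairs with SLC3A2, rose in Trog (0.85 ± 0.271, edgeR adjusted p = 0.00914) and TrogGW (0.69 ± 0.271, 0.0282) and fell in UK (-2.55 ± 0.288, 8.97e-08), there also without UK replicate 5 (-2.29). SLC1A5, a glutamine carrier, fell in all 3 (-0.75, -0.80 and -1.88, edgeR adjusted p = 0.000102, 3.62e-05 and 3.22e-10). SLC1A5 under library totals alone was called in UK and not in Trog or TrogGW (-0.06 and 0.05, edgeR adjusted p = 0.636 and 0.663).

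Immediate early genes were read beside ATF3, which is also induced early in many responses. Of 18 tested, 4 rose and 8 fell in Trog, 7 rose and 6 fell in TrogGW, and 1 rose and 8 fell in UK, against TGFb. The counts with library totals alone were 9 and 6, 11 and 3, and 1 and 5, and without UK replicate 5 they were 5 and 9, 8 and 7, and 1 and 11. FOSL1, a FOS family partner of JUN, rose in TrogGW (1.85 ± 0.17, edgeR adjusted p = 1.09e-09) and fell in UK (-0.56 ± 0.173, 0.00972). The FOSL1 value was 0.32 ± 0.168 in Trog (edgeR adjusted p = 0.107), and with library totals alone it was called in Trog (0.995, 5.02e-05) and not in UK (-0.31, 0.171). JUN, a dimer partner of ATF3, fell in Trog (-1.93 ± 0.241, edgeR adjusted p = 2.27e-07) and UK (-1.50 ± 0.239, 1.29e-05). Other genes of the list differed in TrogGW, where EGR3 rose (7.49, edgeR adjusted p = 3.77e-11) and NR4A1 and FOSL2 fell (-1.94 and -1.29, 1.91e-06 and 3.95e-06). The FOSL2 fall was not called with library totals alone (-0.44, edgeR adjusted p = 0.0648). In TGFb against FB, where ATF3 was not called, FOSL1 fell (-1.415, edgeR adjusted p = 3.39e-07).

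Of 11 mitochondrial chaperones and proteases, 5 rose and 1 fell in Trog, 3 rose and 4 fell in TrogGW, and 3 rose and 3 fell in UK. Over all tested genes, 32.9% rose and 29.7% fell in Trog, 38.1% and 31.3% in TrogGW, and 28% and 22.5% in UK. Under library totals alone, 10 rose in Trog and 7 in TrogGW, with none falling, and 4 rose and 2 fell in UK. Dropping UK replicate 5 gave 5 and 1, 4 and 7, and 3 and 6. LONP1, a protease of the mitochondrial matrix, fell in all 3 (-0.50, -0.82 and -1.34, edgeR adjusted p = 0.00011, 1.03e-07 and 1.08e-10), but was 0.18 in Trog (0.0362) and 0.03 in TrogGW (0.716) with library totals alone. HSPA9, the mitochondrial HSP70, rose in Trog (1.10 ± 0.077, edgeR adjusted p = 1.15e-11) and TrogGW (0.84 ± 0.0766, 9.66e-10) and fell in UK (-0.56 ± 0.0764, 1.68e-06), the directions of MTHFD2 and ATF3. The UK changes without UK replicate 5 were -0.65 for HSPA9, -1.48 for LONP1, -1.62 for JUN, -0.44 for FOSL1, -2.15 for SLC1A5, -2.98 for WARS1, -0.38 for DELE1, -0.39 for PPP1R15B and -0.17 for MTHFD1, all still called. The UK values of CHAC1 and SESN2 were then -0.50 and 0.07 and again not called.

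Over the 25 libraries, the likeness of log2 levels between members was described by Pearson's r. The libraries fall into 5 groups of 5, so r mostly reflects the group means, and no test is attached. ASNS, SHMT2, MTHFD1L and PHGDH formed a set, with r = 0.985 for ASNS and SHMT2, 0.969 for ASNS and MTHFD1L, and 0.947 for ASNS and PHGDH. SHMT1 was most like TRIB3 among the members (r = 0.935), and its r with SHMT2 was -0.30. ASNS and TRIB3 had r = -0.10, and TRIB3 and ATF3 0.713. GLUL ran against MTHFD1L (r = -0.81). Among all tested genes, ASNS was most like PSAT1 (r = 0.987), PHGDH most like UCK2 (0.982), and SHMT2 and MTHFD1L most like CD44 (0.987 and 0.975). GLUL was closest to SQSTM1 (r = 0.992), a selective autophagy receptor, and ATF3 to PTCHD1 (0.985) and the nuclear receptor gene NR4A2 (0.983). SHMT1 was closest to GALNT12 (r = 0.976), MTHFD2 to MRPL9 (0.972) and TRIB3 to BATF2 (0.963). The 2 genes most like each of the 9 members make 18 pairs, of which 5 were found again when UK replicate 5 was left out. GALNT12, SQSTM1 and PSAT1 remained in first place, with r over 24 libraries of 0.976, 0.993 and 0.994.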

How the data were processed

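Polyadenylated RNA of 25 samples was sequenced from strand-marked libraries, per the labels' protocols. The authors deposited 1 table of raw read counts per gene symbol for each sample, and the tools listed, with no roles, are Salmon 1.5.2, featureCounts, Subread 2.0.1, STAR 2.7.9a and fastp 0.23.1, per the submitters' processing notes. The genome build, annotation and strand setting are not given in the sources used here, and no coordinates are reported. RefSeq (assembly F.catus_Fca126_mat1.0) served only for gene names and overlapping genes. Library totals were 14.8 to 25.2 M counts. Among the members, counts were lowest for SHMT1 and the SE largest for TRIB3 (0.254 to 0.303).

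The members and all gene lists were chosen with earlier results of these data known, so their counts are descriptions and no test over a list was made. Counts were fitted in R 4.3.3 with edgeR 4.0.16, which was also tested on simulated data. The fit used TMM scaling, the expression filter (minimum count 10, minimum total 15), 1 mean per group and no replicate block. It gave quasi-likelihood F tests for 10 comparisons, adjusted by the Benjamini-Hochberg method over 10699 genes with a threshold of 0.05. CPM are counts per 1000000 of the TMM-scaled total, and SE is the size of the log2 change divided by F's square root. Likeness used log2 CPM with a prior count of 2.

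The rule for named genes was the 9 members and the 2 genes most correlated with each. It also allowed up to 2 genes with the lowest p per list, direction and comparison, and genes with a role beside a member, such as ATF4 and PSAT1. SMCR8 was named beyond that rule, because it overlaps SHMT1. Alternatives were RLE, upper-quartile and no scaling factors, a minimum count of 50, no filter, DESeq2 1.42.0, limma 3.58.1 voom, a robust spread, a fit of the 2 groups compared, a replicate block, and leaving out each library. Figures were drawn with matplotlib 3.10.9.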

Additional observations from a re-analysis of the deposited data

Results flagged for a closer look

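In each of the 45 sets of 5 libraries (9 genes in 5 groups), the highest or lowest value was compared with its nearest neighbour, and 7 sets held a value far from the rest. Chance gives about 1 in 20 such sets. PHGDH in TGFb replicate 4 was 169 CPM, with the next library at 137 CPM. ASNS in the same library was 640 CPM, with the next at 577 CPM. GLUL in FB replicate 4 was 62.5 CPM, below the next library at 66.3 CPM. TRIB3 in Trog replicate 2 was 434 CPM, above the next at 313 CPM, and in UK replicate 5 it was 39.4 CPM, above the next at 16.8 CPM. ATF3 in FB replicate 1 was 25.6 CPM, with the next at 22.2 CPM, and in TrogGW replicate 1 it was 350 CPM, with the next at 266 CPM. UK replicate 5 is the library that stood apart over all genes, and the TRIB3 rise in UK against TGFb went from 0.87 to 0.39 on the log2 scale without it. The other 6 values lie in libraries that correlated at 0.988 or more with their group. The lowest of these correlations, 0.988 and 0.990, were those of TrogGW replicate 1 with TrogGW replicates 3 and 4.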

How the results depend on the processing

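The number of members called ranged, over libraries left out in turn, from 5 to 7 in TGFb against FB (6 with all), 6 to 8 in TrogGW against Trog (8), 7 to 9 in UK against TrogGW (7) and 8 to 9 in TrogGW against FB (8). It was 9 throughout in Trog, TrogGW and UK against TGFb, UK against Trog, Trog against FB and UK against FB. With library totals alone, 5 members were called in TrogGW against Trog. That scaling moved the median of all genes by -0.375 in TGFb against FB, 0.684, 0.851 and 0.231 in Trog, TrogGW and UK against TGFb, and 0.168 in TrogGW against Trog. The share of higher genes among all calls went from 47.2% to 13.9%, 52.5% to 83.2%, 54.9% to 84.9%, 55.4% to 74.2% and 52.8% to 69.9% in these 5. The 10 genes with most counts held 14.3% to 15.7% of a library in FB, 20.7% to 23.7% in TGFb and 10.6% to 11.5% in Trog. They held 8.19% to 9.35% in TrogGW and 16.2% to 25.8% in UK. TMM factors were 0.955 to 0.992 in FB, 0.713 to 0.768 in TGFb and 1.19 to 1.21 in Trog. In TrogGW they were 1.28 to 1.38 and in UK 0.740 to 0.940. Why the scalings differed was not tested. The sign of GLUL in TGFb against FB turned with upper-quartile scaling (-0.052), with library totals alone (-0.37) and without FB replicate 4, TGFb replicate 4 or TGFb replicate 5. Over libraries left out in turn it ran from -0.023 to 0.021. That of ATF3 turned with library totals alone (-0.27). Calls over all genes rose from 4089 to 7124 in TGFb against FB and from 4620 to 7735 in TrogGW against Trog without UK replicate 5. Fits of the 2 groups alone gave 7087, 7312 and, in UK against TGFb, 3210 (5408 in the full fit). Replicate numbers did not pair the libraries (median r of deviations -0.0157 over 50 same-number pairs, 6 above 0.1, 3 libraries closest to their own number). With the replicate block the members called stayed at 6, 9, 9, 9, 8, 9, 7, 9, 8 and 9 over the 10 comparisons, and all 90 member changes kept their direction and side of the threshold. They did so too with RLE scaling, DESeq2, no filter and the robust spread. Counts were lowest for SHMT1, with 10 to 31 reads in TGFb libraries.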
